A study of Homo sapiens with 8 samples.

Results

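Among the H3K27ac regions that all 4 libraries shared, 493 kept a peak after CEBPB knockdown but were called over at most 50% of their control length with both siRNAs. H3K27ac, acetylation of lysine 27 on histone H3, marks active promoters and enhancers. Peaks of this mark came from immunoprecipitated chromatin of A549, a human cell line established from a lung adenocarcinoma. The design has 2 libraries with the control siRNA (control 1 and control 2), 1 library with CEBPB siRNA-1 and 1 with CEBPB siRNA-2, called siRNA-1 and siRNA-2 here. All cells were transfected, changed to fresh medium after 24 h and harvested after a further 24 h. The 2 siRNAs stand as the replicates of the knockdown, and nothing in the labels says that the libraries came from separate cultures. How far each siRNA lowered CEBPB, and the identity of the cell line by its marker genes, were not tested here. No gene annotation of the build of these lists was used.

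CEBPB is a basic leucine zipper transcription factor that binds enhancers and can recruit histone acetyltransferases. Acetylated domains often hold several enhancer elements side by side, and a peak caller reports such a domain as 1 long peak while the signal between the elements stays above background. A shorter called length therefore records that less of a domain passed the caller's threshold, and a peak list by itself does not give the amount of acetylation. A549 cells carry constitutively active NRF2, a regulator of the oxidative stress response, and the series asks which enhancers of this setting depend on CEBPB.

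The members were chosen by their called length in the controls and after knockdown, which is the number of bases of a region that lie inside peaks of a library. Peaks of the 4 lists on chromosomes 1 to 22 and X were first joined into regions, for which an overlap of 1 bp sufficed. Of 60669 merged regions, 24133 had a peak in every list, and 15610 of these had 1000 bp or more of called length in both controls. In 493 of the 15610 regions (3.16%) each knockdown library had at most 50% of the called length of the shorter control. These 493 are called shortened regions below, and the remaining 15117 are the other shared regions. The rule used the contrast of control and knockdown, so all values of this contrast are given as a description and carry no test.

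The opposite rule, with both controls at most 50% of the shorter knockdown library, held for 597 of 15075 regions (3.96%). Shortening was thus the less frequent direction with all 4 libraries. This order rests on the siRNA-1 library: without it the rule held for 1435 regions as shortening and for 725 in the opposite direction. The siRNA-1 list had the most called length, 70.4 Mb, and the siRNA-2 list the least, 61.7 Mb, against 67.9 and 62.1 Mb in control 1 and control 2. Shortening was also the less frequent direction with lengths scaled by list totals, with 513 regions against 613. With called length made equal between lists the counts were 251 and 447. The part of list length in the dependence on the siRNA-1 library was not tested. When the libraries were paired across the treatments, the same rule held for far fewer regions. It held for 34 of 15274 regions (0.223%) with control 2 and siRNA-2 shorter than control 1 and siRNA-1. It held for 2 of 14327 (0.014%) in the reverse of that pairing. For control 2 and siRNA-1 against control 1 and siRNA-2 it held for 6 of 14834 regions (0.0404%), and for 2 of 14597 (0.0137%) in reverse. Both directions of the true pairing thus lay well above all 4 mixed counts, as the bars by pairing show. With 2 libraries against 2, an exact permutation test cannot give a p below 0.333.

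**Figure D1:**
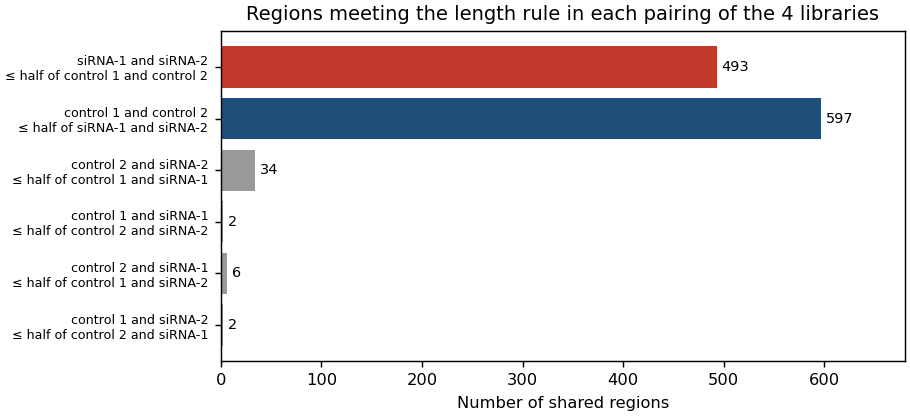
Number of shared regions (horizontal axis) that meet the length rule in each pairing and direction of the 4 libraries (vertical axis, 1 bar each). The treatment pairing gives 493 regions shortened and 597 lengthened after knockdown, and the mixed pairings give at most 34.

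Each siRNA on its own met the rule in more regions. The siRNA-1 library had at most 50% of the shorter control in 1109 of the 15610 regions (7.1%), and the siRNA-2 library in 1149 (7.36%). The 493 are the regions in which both did. Near the threshold the values were continuous. Just inside lay a region on chromosome 12 (89915161 to 89916644) with 1357 and 1186 bp in control 1 and control 2, 593 bp with siRNA-1 and 221 bp with siRNA-2. Also just inside were regions on chromosome 15 (68693265 to 68695112), with 1848, 1468, 734 and 644 bp in the same order, and on chromosome 13 (73612324 to 73618664), with 6200, 6155, 3077 and 2893 bp. Just outside lay a region on chromosome 14 (52816862 to 52820744), with 3471, 3842, 1739 and 1120 bp. The next on that side were on chromosome 2 (26366674 to 26368164), with 1491, 1416, 413 and 711 bp, and on chromosome 3 (187839940 to 187842263), with 2289, 2324, 655 and 1150 bp. No gap separates the members from the regions that just miss the rule.

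The shortened regions were of ordinary length in the controls. Their called length ranged from 1021 to 22654 bp in control 1 (median 2533 bp) and from 1002 to 21699 bp in control 2 (median 2361 bp). With siRNA-1 it ranged from 236 to 6393 bp (median 646 bp), and with siRNA-2 from 216 to 7394 bp (median 653 bp). In the other shared regions the medians were 2299 and 2155 bp in the controls, 2351 bp with siRNA-1 and 2165 bp with siRNA-2, so that the control medians of both sets lie close together. The controls differed in length by a similar median in both sets: control 2 over control 1 was 94.9% in shortened regions and 95.2% in the other shared regions. This ratio gives a shift in length and not how well the called bases matched.

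Summed over the 493 members, called length was 1589 kb (control 1) and 1490 kb (control 2), and 447 kb (siRNA-1) and 459 kb (siRNA-2). These sums were 2.34% and 2.40% of all called length in the controls, and 0.635% and 0.744% with the siRNAs. The mean knockdown length over the mean control length had a median of 28.9% over members and ran from 8.36 to 48.4%. In 84 members both siRNAs left at most 25% of the shorter control, and in 1 member at most 10%. The siRNA-1 library was the shorter of the pair in 230 members (46.7%) and the siRNA-2 library in 263 (53.3%). Among other shared regions siRNA-1 was the shorter in 34.3% and siRNA-2 in 65.6%. The plot of called lengths shows the members as the lower edge of a broad cloud.

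**Figure D2:**
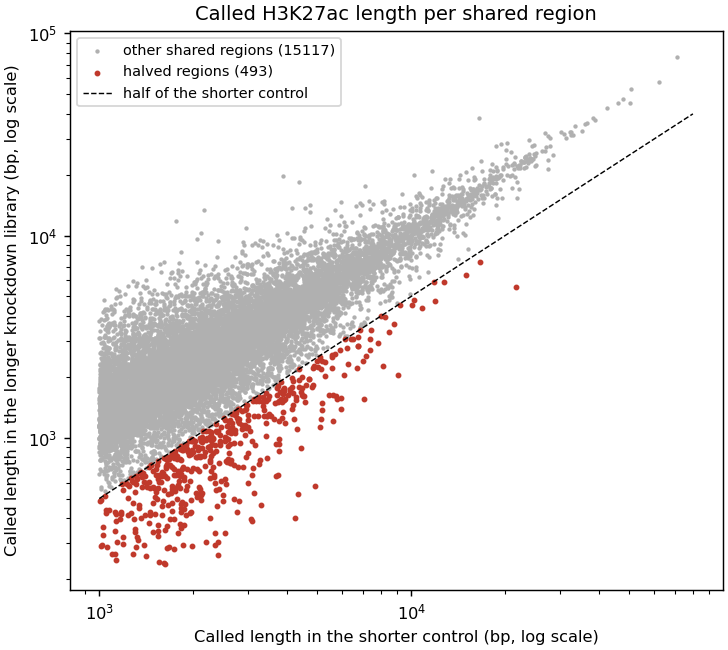
Called length in the shorter control (horizontal, bp, log scale) against called length in the longer knockdown library (vertical, bp, log scale), 1 point per shared region with 1000 bp or more in both controls. The 493 shortened regions (red) lie by definition on or under the dashed line at 50% of the shorter control, and the 15117 other shared regions (grey) adjoin them without a gap.

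Members occurred in every class of control length, with the smallest share among the longest domains. Of regions with 1000 to 2000 bp in the shorter control, 197 of 7346 (2.68%) were shortened, and of those with 2000 to 3000 bp, 142 of 3475 (4.09%). The shares were 3.57% (98 of 2744) from 3000 to 5000 bp and 3.12% (47 of 1508) from 5000 to 10000 bp. Of the 537 regions of 10000 bp or more, 9 (1.68%) were shortened. In the same classes of the shorter knockdown length, the opposite rule held for 249 of 7192, 194 of 3413, 122 of 2642, 29 of 1372 and 3 of 456 regions. The longest class thus had the smallest share in both directions.

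Members also occurred at every strength, more often among weaker regions. Strength is the lower of the best −log10 q values of the 2 controls, where q is the authors' own value per peak. Strength was cut at its quintiles over the 15610 regions, giving 5 classes. Among the weakest regions 151 of 3119 (4.84%) were shortened, and in the strongest 51 of 3122 (1.63%). The opposite direction was not counted by strength, so whether this gradient is particular to shortening was not tested. The best peak of a member stood at a median percentile of 75.8 in control 1 and 74.7 in control 2, against 81.6 and 81.3 for the other shared regions. Within the knockdown lists the best peak of a member stood at a median percentile of 33.9 (siRNA-1) and 35.8 (siRNA-2), where other shared regions stood at 81.8 and 81.9. Its median −log10 q was 7.24 (siRNA-1) and 7.21 (siRNA-2). In the top 10% of its list stood the best peak of 70 members in control 1 (14.2%) and 72 in control 2 (14.6%), and of 4 members with each siRNA (0.811%). The other shared regions stood there more often, 28.4% and 27.9% of them in the controls, 29.3% with siRNA-1 and 29.5% with siRNA-2. What remained of the members in the knockdown lists was mostly a short peak of low rank within its list. The rule selects for short knockdown lengths, and the part of that in the low rank was not tested.

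In shortened regions most bases called in both controls were called with neither siRNA, and the remaining peak usually sat at the control summit. The bases called in both controls of the members were counted by whether the knockdown lists also called them. Pooled over members, 20.5% of these bases were called with both siRNAs, 10.7% with siRNA-1 only, 11.6% with siRNA-2 only and 57.2% with neither. In the other shared regions 83.1% were called with both and 5.47% with neither. Of the bases missing with siRNA-1 in members, 44.2% lay left of everything it called in the region, 43.9% lay right of it and 11.8% lay between its peaks. With siRNA-2 these shares were 44.2%, 39.9% and 15.9%. Bases missing from the other shared regions also lay mostly at the ends: 37.5% left, 38.2% right and 24.3% between peaks with siRNA-1, and 34.9%, 35.9% and 29.2% with siRNA-2. A library with 1 remaining peak in a region can only lose bases at the ends by this definition. There was 1 peak in 330 members with siRNA-1 (66.9%) and in 301 with siRNA-2 (61.1%). Among the other shared regions this was more frequent, with 76.0% and 65.2%. Left and right here mean lower and higher coordinates, since a peak has no strand.

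Both ends receded in most members. With siRNA-1 each end held 20% or more of the missing bases in 329 of 493 members (66.7%), and with siRNA-2 in 316 (64.1%). Among the other shared regions that missed any such base this was so in 22.8% of 8596 with siRNA-1 and in 22.7% of 10597 with siRNA-2. A single end held 80% or more of them in 102 members with siRNA-1 (20.7%) and in 86 with siRNA-2 (17.4%), against 48.7% and 44.0% of those other regions. The members lost more bases by the rule, and the part of that in these shares was not tested. In the 163 members with 2 or more siRNA-1 peaks, where bases could be missing between peaks, 29.2% of the missing bases lay there. With siRNA-2 it was 33.4%, over 192 members. Over other shared regions with 2 or more peaks these shares were 46.5% and 49.8%.

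Shortening left a single peak in some members and several pieces in others. Of 277 members with 1 peak in each control, 195 (70.4%) also had 1 peak with siRNA-1 and 181 (65.3%) with siRNA-2, so that the peak was narrower but unbroken. A single control peak stayed single more often in the other shared regions, in 84.0% with siRNA-1 and 77.1% with siRNA-2. More peaks than in either control were called in 100 members with siRNA-1 (20.3%) and in 123 with siRNA-2 (24.9%), against 11.8% and 18.5% of the other shared regions.

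The summit of the best control 1 peak was covered by a peak of both knockdown lists in 303 of 493 members (61.5%, Wilson 95% interval 57.1 to 65.7%, which covers counting error over regions only). It was covered with 1 siRNA only in 126 members (25.6%) and with neither in 64 (13.0%). In the other shared regions both lists covered it in 96.9%. At 500 bp to either side of that summit, siRNA-1 had a peak in 28.4% (left) and 27.6% (right) of members, and siRNA-2 in 26.4% on the left and in no more than siRNA-1 on the right, while each control had one in 86.6% or more. At the same places the other shared regions were called in 82.0% or more by each knockdown list. The curves of called share around the summit show a narrow central spike with both siRNAs where the controls show a broad plateau. The rule selects for this difference in width, and control 1 is called at its own summit by construction. The median distance from the control 1 summit to the best summit was 154 bp with siRNA-1 and 148 bp with siRNA-2, and 89 bp to that of control 2. In the other shared regions these distances were 81, 81 and 70 bp.

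**Figure D3:**
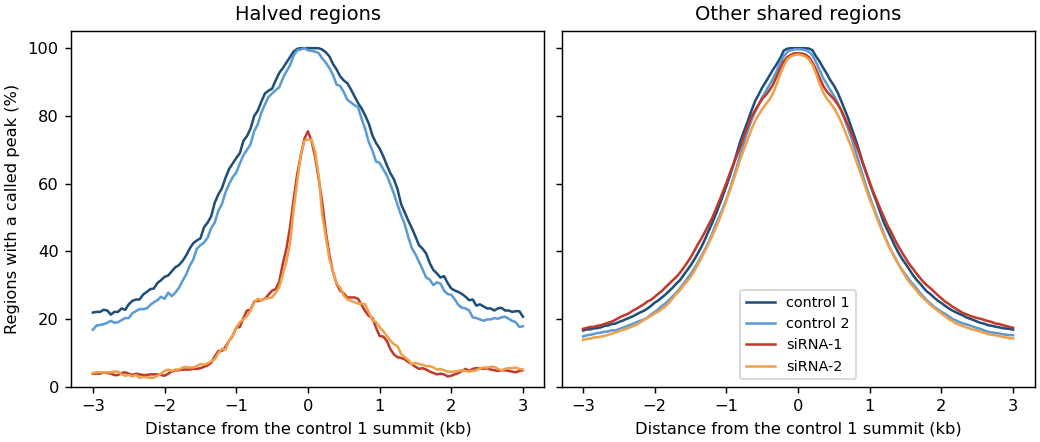
Share of regions with a called peak (vertical, %) by distance from the summit of the best control 1 peak (horizontal, kb), 1 line per library, for the 493 shortened regions (left) and the 15117 other shared regions (right). In shortened regions both siRNA lines fall to under 30% at 500 bp from the summit, where both control lines are above 80%. The rule selects for this difference in width, and control 1 is called at its own summit by construction. In the other regions the 4 lines run close together.

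The siRNAs agreed less on the remaining bases than the controls agreed on theirs. The Jaccard index of called bases within a member, the bases called by both libraries over those called by either, had a median of 0.456 between the knockdown libraries and of 0.854 between the controls. In the other shared regions these medians were 0.801 and 0.863. In 38 of 493 members the 2 knockdown libraries had no called base in common, against 6 of the 15117 other shared regions. The knockdown peaks of members were also shorter (medians of 646 and 653 bp), and the part of their length in this gap was not tested.

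The 10 members that lost most called length were all long domains in the controls, which a ranking by bases lost favours. Genes are named here from general knowledge of the hg19 map and not from an annotation, and no count rests on them. The first lies in SLC23A2, which encodes a sodium-dependent vitamin C transporter (chromosome 20, 4936594 to 4959480). It had 22654 bp in control 1 and 21699 bp in control 2, against 5564 bp with siRNA-1 and 5278 bp with siRNA-2. Both siRNAs kept the same central and right-hand blocks: siRNA-1 kept pieces of 1489, 1096 and 2979 bp, and siRNA-2 kept pieces of 1341, 712, 3008 and 217 bp at nearly the same places. The map of called peaks shows that the left part of this domain was without a call with either siRNA. A further member lies nearby in the same locus (chromosome 20, 4980530 to 4982624), with 1851 and 1849 bp in the controls, 295 bp with siRNA-1 and 226 bp with siRNA-2.

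The second lies at FBXO21, which encodes an F-box protein of ubiquitin ligases (chromosome 12, 117573178 to 117590615). It had 17004 and 16615 bp in the controls, 4250 bp with siRNA-1 and 7394 bp with siRNA-2. The siRNA-2 library kept 6 separate peaks there and the siRNA-1 library 2. The third lies between SLC43A3 and RTN4RL2 on chromosome 11 (57199779 to 57214395) and had 14204 and 12753 bp in the controls, 5874 bp with siRNA-1 and 3266 bp with siRNA-2. In this domain the left-hand part was reduced to small remnants with both siRNAs. The fourth, next to RASSF9 (chromosome 12, 86149763 to 86162008), had 11892 and 12156 bp in the controls, 1626 bp with siRNA-1 and 4742 bp with siRNA-2. The best control 1 summit of this domain was not covered by peaks of both siRNA libraries.

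**Figure D4:**
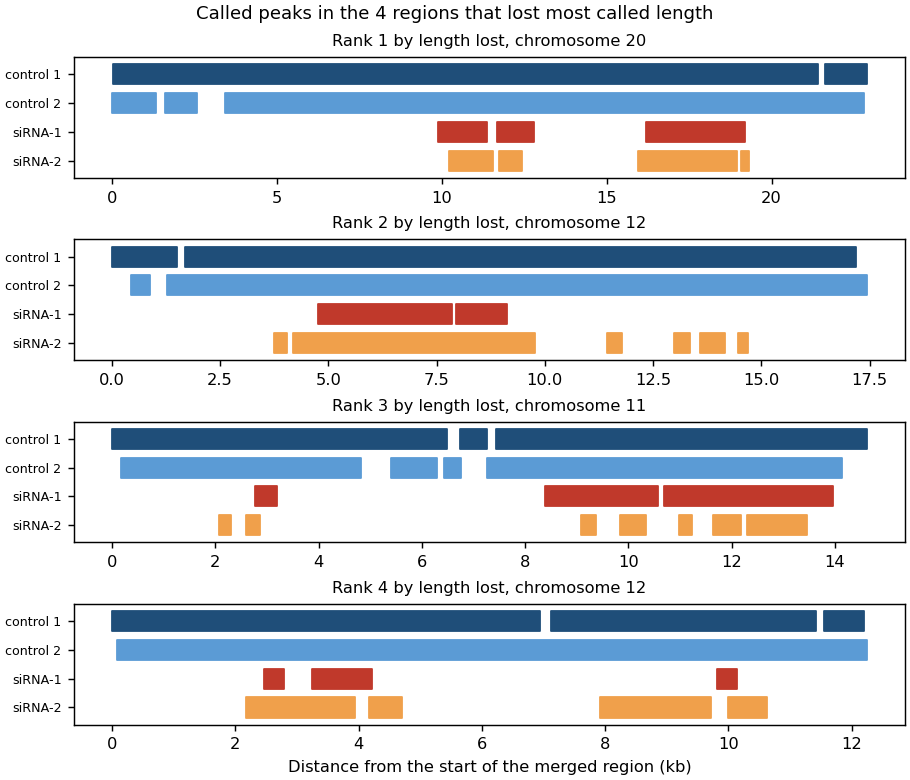
Called peaks (bars) in control 1, control 2, siRNA-1 and siRNA-2 within the 4 members that lost most called length, by distance from the start of the merged region (horizontal, kb). Long, nearly unbroken control bars face a few short bars with each siRNA, and in the first panel the siRNA bars stand at nearly the same places.

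Next in order came a domain in PDE4D, which encodes a phosphodiesterase that breaks down cyclic AMP (chromosome 5, 58548327 to 58563890). It had 15008 and 15088 bp in the controls, 6393 bp with siRNA-1 in 7 peaks and 6123 bp with siRNA-2 in 6 peaks. This domain differed from most members in that it lost bases mainly from its interior, 5951 bp with siRNA-1 and 6067 bp with siRNA-2. A domain in GYS2, which encodes the liver form of glycogen synthase (chromosome 12, 21711877 to 21721415), had 9057 and 9129 bp in the controls, 1332 bp with siRNA-1 and 2051 bp with siRNA-2. A domain between AGR3 and AHR on chromosome 7 (16955389 to 16968421) had 12915 and 10085 bp in the controls, 4145 bp with siRNA-1 and 4556 bp with siRNA-2. AHR encodes the aryl hydrocarbon receptor, a ligand-activated transcription factor.

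The remaining 3 of these 10 included the one with the lowest ratio. A domain in MACROD2, which encodes an ADP-ribose hydrolase (chromosome 20, 14935916 to 14944734), had 8759 and 7045 bp in the controls, 357 bp with siRNA-1 and 1554 bp with siRNA-2. A domain in the type I keratin gene cluster (chromosome 17, 39005441 to 39016720) had 10809 and 11138 bp in the controls, 3831 bp with siRNA-1 and 4360 bp with siRNA-2. A domain in ZMYND8, which encodes a reader of chromatin marks (chromosome 20, 45931670 to 45940367), had 8156 and 8130 bp in the controls, 363 bp with siRNA-1 and 2256 bp with siRNA-2. In MACROD2 and ZMYND8 the siRNA-1 library was left with a single short peak, and siRNA-2 with 3 and 2 peaks.

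The 10 strongest members by control −log10 q all ranked at percentile 98.1 or above in both controls, and they held a called peak at the control 1 summit with both siRNAs. The strongest lies between SLC23A2 and TMEM230 (chromosome 20, 5049675 to 5057146). It was 1 peak in every library, of 7411 and 7384 bp in the controls, 3090 bp with siRNA-1 and 2959 bp with siRNA-2, and the authors' fold enrichment at its summit was 38.1 in control 1 and 44.6 in control 2. The domains at FBXO21 and SLC23A2 described above were also among these 10. A member in SLC45A4, which encodes a solute carrier (chromosome 8, 142246937 to 142252804), had 5868 and 5095 bp in the controls, 2505 bp with siRNA-1 and 2435 bp with siRNA-2. It thus lay close under the 50% limit. A member in MYO1E, which encodes an unconventional myosin (chromosome 15, 59544126 to 59553266), had 8494 and 8702 bp in the controls, 3350 bp with siRNA-1 and 3238 bp with siRNA-2.

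A domain in SYT1, which encodes a calcium sensor of vesicle release (chromosome 12, 79687671 to 79696558), was shortened unequally by the siRNAs. It had 8888 and 7819 bp in the controls, 1000 bp with siRNA-1 and 2927 bp with siRNA-2. Its best peak ranked at percentile 42.0 with siRNA-1 and 87.6 with siRNA-2. A member in DNAJC15, which encodes a mitochondrial co-chaperone (chromosome 13, 43614239 to 43622132), had 7011 and 7633 bp in the controls, 2388 bp with siRNA-1 and 2065 bp with siRNA-2. It lost 3451 bp at its left end with siRNA-1 and 3981 bp with siRNA-2, against 911 and 704 bp at its right end. This member was thus trimmed from the same side by both siRNAs.

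Of the other 3 strongest, a region on chromosome 17 (55898783 to 55905334) had 6507 and 5133 bp in the controls, 1550 bp with siRNA-1 and 2198 bp with siRNA-2. A second PDE4D domain (chromosome 5, 58648267 to 58660772) had 11835 and 12494 bp in the controls, 5267 bp with siRNA-1 and 5859 bp with siRNA-2. A domain at ANXA4, which encodes an annexin (chromosome 2, 69963917 to 69974707), had 10171 and 10358 bp in the controls, 4786 bp with siRNA-1 and 4194 bp with siRNA-2. The ANXA4 domain kept the highest rank of these 10 with siRNA-1, percentile 95.4, and stood at percentile 93.9 with siRNA-2. The member upstream of KLF5, an epithelial zinc finger transcription factor, is the chromosome 13 region given above as just inside the threshold.

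The 5 members with the lowest ratio of longer knockdown to shorter control length were of moderate size. No member had less than 236 bp with siRNA-1 or 216 bp with siRNA-2, which limits how low the ratio of a short region can go. On chromosome 3 a region (188987298 to 188992423) had 4237 and 4259 bp in the controls against 380 bp with siRNA-1 and 400 bp with siRNA-2, the single member under 10%. A second on chromosome 3 (161040627 to 161043132) had 2474, 2396, 262 and 216 bp in control 1, control 2, siRNA-1 and siRNA-2. Neither of these kept a call with both siRNAs at the best control 1 summit. A region in WDR7 (chromosome 18, 54649953 to 54655539) had 5587, 4908, 577 and 465 bp in the same order. A region on chromosome 12 (130614833 to 130619822) had 4990, 4332, 524 and 255 bp. A region on chromosome 6 upstream of PRDM1 (106497907 to 106501580) had 3091, 3392, 319 and 387 bp. In these last 3 both siRNAs kept a small peak over the summit.

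Some loci held several shortened regions, although most stood alone. Of 388 bins of 1 Mb with a member, 311 held 1, 58 held 2, 11 held 3, 7 held 4 and 1 held 5. Bins also differed in their number of eligible regions, those called in all 4 lists with 1000 bp or more in both controls. Counts per bin were not corrected for this, and 3.16% of all eligible regions were members. The bin with 5 covers part of PDE4D (chromosome 5, 58000001 to 59000000) and had 26 eligible regions. Besides the 2 domains above it held members with 3070, 6777 and 1900 bp in control 1. These 3 had 424, 469 and 263 bp with siRNA-1, and 1162, 1608 and 369 bp with siRNA-2. Neighbouring bins on chromosome 7, from 16000001 and from 17000001, held 4 members each, among 12 and 19 eligible regions, and span AGR2, AGR3 and AHR. AGR2 and AGR3 encode protein disulfide isomerases of the secretory pathway. The first of these bins had 59.8 and 52.6 kb of called length in the controls and 23.3 and 25.5 kb with siRNA-1 and siRNA-2, and no region there was gained (called with both siRNAs and in neither control) or doubled (meeting the opposite rule). The second had 65.4 and 64.1 kb against 40.1 and 42.2 kb.

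The other bins with 4 members differed in how far the shortening showed in their total. The bin of STEAP1 and its neighbours (chromosome 7, from 89000001) had 4 of its 8 eligible regions shortened. Its called length was 23.8 and 21.2 kb in the controls and 8.42 and 12.5 kb with siRNA-1 and siRNA-2. STEAP1 encodes a membrane protein of a metalloreductase family. The bin of RBM47, which encodes an RNA-binding protein (chromosome 4, from 40000001, 20 eligible regions), had 86.3 and 83.3 kb in the controls against 62.4 and 63.4 kb. The bin of SLC23A2 (chromosome 20, from 4000001, 16 eligible regions) had 91.2 and 81.3 kb against 52.0 and 53.1 kb.

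The bin of MTUS1 and FGL1 (chromosome 8, from 17000001, 19 eligible regions) had 125 and 116 kb in the controls against 82.0 and 88.5 kb. The bin of SLC45A4 (chromosome 8, from 142000001, 18 eligible regions) had 71.2 and 63.6 kb in the controls against 72.6 and 57.4 kb. In this last bin the groups overlapped, and it also held 1 doubled and 4 gained regions. In the other 7 of the 8 bins with 4 or more members both knockdown totals lay below both control totals. The members are part of these totals.

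The surroundings of the members were also called over less length. Within 50 kb outside a member, to both sides together, median called length was 7436 bp in control 1 and 7024 bp in control 2, against 4270 bp with siRNA-1 and 4201 bp with siRNA-2. Around the other shared regions it was 5131 and 4684 bp in the controls, 5335 bp with siRNA-1 and 4526 bp with siRNA-2. Both knockdown libraries had less than both controls around 335 of 493 members (68.0%), against 27.8% of the other shared regions. The reverse held around 22 members (4.46%), against 27.5%. These flanks can hold other regions that meet the rule. Without the peaks of all shortened and doubled regions the medians around members were 6793 and 6452 bp in the controls, 4053 bp with siRNA-1 and 3956 bp with siRNA-2. Both knockdown libraries then had less than both controls around 324 members (65.7%), against 4087 of the 15117 other shared regions. These flanks come from the same 4 libraries as the rule, so they describe the loci and test nothing.

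Neighbouring regions followed the same pattern. Within 50 kb, 268 members (54.4%) had a lost region, one called in both controls and with neither siRNA, against 25.7% of the other shared regions. Another shortened region lay within 50 kb of 85 members (17.2%, against 5.17%). A gained region lay within 50 kb of 50 members (10.1%, against 23.4%), and a doubled region within 50 kb of 2 members (0.406%, against 4.94%). The bars of flanks and neighbours set both kinds of region side by side. These shares were not corrected for the higher density of control peaks around the members.

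**Figure D5:**
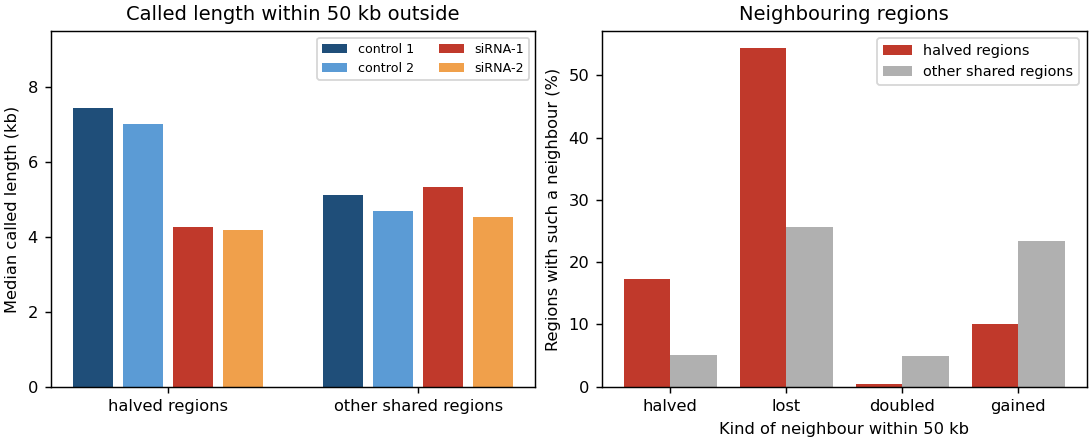
Left, median called length (kb) in the 50 kb to each side outside a region, by library (bars), around the 493 shortened and the 15117 other shared regions. Right, share of regions (%) with a shortened (halved), lost, doubled or gained region within 50 kb. Around shortened regions both siRNA bars are lower than both control bars, and lost neighbours are more frequent (54.4% against 25.7%) and gained ones less frequent (10.1% against 23.4%) than around other shared regions.

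Every chromosome from 1 to 22 and X held members. The share of eligible regions shortened ran from 0.945% on chromosome 16 (5 of 529) to 4.89% on chromosome 18 (16 of 327). Chromosome 20, which carries CEBPB as well as the SLC23A2, MACROD2 and ZMYND8 domains, had 23 of 480 (4.79%) shortened and 14 doubled. Chromosome 8 had 33 of 735 (4.49%) shortened and 38 doubled. Chromosome 1 had the most members, 42 of 1461 (2.87%), and 58 doubled regions. These shares rest on few regions each and were not tested.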

How the data were processed

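H3K27ac was measured in 4 immunoprecipitated libraries of A549 cells; the 4 input libraries were not analysed here. Reads were single-end, of 101 bases, per the labels' protocols. Per the submitters' processing notes, MACS2 2.2.7.1 was used with BWA 0.7.17, SAMtools 1.7.0 and build hg19. The sources used here do not give the options of these tools or any use of the inputs. Peaks were listed per library. The authors' lists give start, end and summit of each peak, a linear ratio (fold enrichment at the summit), −log10 p, −log10 q and a score that restates −log10 q. The highest q in the lists was 0.0498. The lists carry no read counts, so depth is unknown, and a base outside peaks is a base not called. Lists had 45537 to 48216 peaks and 61.7 to 70.4 Mb of called length on chromosomes 1 to 22 and X; 153 to 171 peaks per list lay elsewhere and were left out.

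Merging, called length and shapes were computed with Python 3.11.15, pandas 2.3.3 and NumPy 2.4.6, and the counting was tested on simulated lists. Percentiles are ranks of −log10 q within 1 list. Named regions are the 10 with the largest loss of called length, the 10 with the highest lower control −log10 q, the 5 with the lowest ratio, 3 to each side of the threshold, and 1 Mb bins with the most members (here 4 or more); other regions named were chosen after their values were seen. The members and lists were chosen with earlier results of these data known. Planned counts over gene lists, distances to transcription starts, base composition and motifs were not made, because no genome or annotation of hg19 was used; no sequence is printed for the same reason. Alternatives changed the ratio, the minimum length, the peaks used, the merging, the scaling and the libraries; flanks without shortened and doubled regions were added after the data were seen.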

Additional observations from a re-analysis of the deposited data

How the results depend on the processing

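Shortened regions stayed above the highest mixed pairing wherever both were counted, and below the opposite direction in every setting run except without siRNA-1. They numbered 273 with a ratio of at most 0.4 and 810 with at most 0.6, against 331 and 984 in the opposite direction and 12 and 82 for the highest mixed pairing. With 2000 bp or more in the controls these 3 counts were 296, 348 and 5, and with 500 bp the mixed count was 69. Fewer or more regions can enter in each of these settings by construction. With only peaks of −log10 q of 10 or more they were 163 and 226, and 69 of the 493 members overlapped a region called then, so most members rest on knockdown peaks weaker than that. With called length made equal between lists 251 regions were shortened, which overlap 173 of the 493 members, 447 met the opposite rule, and the mixed count was 16; with lengths scaled by list totals the mixed count was 21. The cause was not tested for any of these changes. With 1 library left out, shortened regions ranged from 498 to 1435 and the opposite direction from 725 to 1368; fewer lists then have to meet the rule. Without siRNA-1 the order turned, with 1435 shortened against 725 in the opposite direction. Without siRNA-2 these counts were 1299 and 1368, without control 1 they were 498 and 1149, and without control 2 they were 731 and 961. The label numbers do not say that libraries share a culture, and deviations of same-numbered libraries correlated at 0.0722 over 15610 regions; as a replicate block, with each siRNA against the control of its number, 575 regions were shortened and 751 lengthened. The share with a control summit called by the knockdown lists was taken over the regions shortened in each setting, not the 493 members. It was 70.9% of 333 regions with only peaks of −log10 q of 5 or more. Without siRNA-1 it was 70.9% of 1435 regions, and without siRNA-2 71.7% of 1299, where 1 list has to call the summit. Over the 493 members, siRNA-1 covered the control 1 summit in 75.5% and siRNA-2 in 73.0%. Mixed pairings were not counted for the block or with a library left out.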
